A study of Homo sapiens and Mus musculus with 26 samples.

Results

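Valine tRNA fragments were followed through the TRAC-Seq tables of mouse liver tumors and of SNU449 cells, a human hepatocellular carcinoma line. Members were all rows whose names begin with tRNA-Val- and end in one of 4 classes of mature tRNA read: 3' fragments, 5' fragments, whole tRNA reads and other reads. This gave 108 rows of the 38675 in both tables. The 40 mouse rows come from 10 isodecoders, which are tRNAs that share an anticodon and differ elsewhere in sequence: 5 with the anticodon AAC, 4 with CAC and 1 with TAC. The 68 SNU449 rows come from 17 isodecoders, of which 6 are AAC, 7 CAC and 4 TAC. The rows were chosen by name, but the family itself was selected on the NaBH4-against-input and overexpression-against-control values of these same libraries. The values and counts below are therefore a description and support nothing by themselves.

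Valine tRNAs carry valine to the ribosome, and their 3 anticodons here read the valine codons of mRNA. Several of them hold N7-methylguanosine (m7G) in the variable loop, a short stretch between the anticodon arm and the TΨC arm. The mark is placed by METTL1, the catalytic subunit, together with WDR4. In yeast, valine tRNA with the anticodon AAC that lacks m7G and a further modification is the classic target of rapid tRNA decay. TRAC-Seq reduces m7G with NaBH4 so that the chain can be cleaved there, and the part of the tRNA downstream of the mark is then read as a 3' fragment. A 3' fragment that starts in the variable loop does not hold the anticodon.

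The mouse libraries came from liver tumor tissue of 3 C57 animals named Ctrl01 to Ctrl03 and labelled wild type, called animals 1 to 3 below. Each animal gave a NaBH4-treated library and an input without NaBH4. Age, sex and how the tumors arose are not given in the labels used here. SNU449 gave 4 libraries: NaBH4-treated and input from control (NC) cells, labelled wild type, and the same pair from cells labelled OE-WT and Mettl1 overexpression. There was 1 library in each SNU449 group, so no difference there has a replicate check. All 10 libraries, inputs included, were made from size-selected small RNA treated with AlkB, a demethylase that removes methyl groups that stop reverse transcription. MHCC97H TRAC-Seq was not analysed here.

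Reads assigned to mature tRNA rows numbered 1943806 to 2820877 in the mouse libraries and 2222876 to 3368948 in SNU449. In SNU449 the METTL1 gene itself had 6 reads in the NC input and 0 in the NC NaBH4 library, against 142 and 81 in the METTL1 overexpression libraries, the direction of the labels. The hepatocyte microRNA gene Mir122 was listed between 1225 and 3074 in the 6 mouse libraries, with its lowest values in both libraries of animal 3. Of the other fixed marker genes, 5 were listed in the mouse table (Mir223, Mir155, Mir126a, Mir143 and Mir145a), none above 22.4 in any library. The leukocyte marker Mir155 had 22.2 and 22.4 in the input and NaBH4 library of animal 3. In animals 1 and 2 it had 6.08 and 6.35 in input and 1.49 and 3.83 with NaBH4. Mir223, also a leukocyte marker, was highest in both libraries of animal 3 as well, while Mir126a, Mir143 and Mir145a were not. The SNU449 table did not list MIR122. In these bulk tumors fewer cells of a type and less RNA per cell cannot be told apart.

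The same reads often stood in several valine rows. Rows of 1 fragment class were taken to hold nearly the same reads where their values differed by at most 3% in every library, among rows whose mean reached 10. By this measure the 10 mouse 3' rows formed 6 sets, and 3 of those sets joined anticodons: AAC-1, AAC-5 and CAC-2 formed the first, AAC-2 and CAC-1 the second, and AAC-3 and CAC-3 the third. CAC-4, AAC-4 and TAC-1 each stood alone. In SNU449 the 12 such 3' rows formed 8 sets, with AAC-1, AAC-2, CAC-1 and CAC-5 in 1 set and TAC-1 and TAC-2 in another. For these rows the AAC and CAC 3' fragments cannot be told apart. CAC-1 and CAC-5 of SNU449 held equal values in all 4 classes. The 10 mouse 5' rows formed 9 sets, none of which joined anticodons, while in SNU449 a set of 6 rows (AAC-1, AAC-3, AAC-4, CAC-1, CAC-4 and CAC-5) did. Sums over rows therefore count such reads more than once.

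In the mouse tumors all 10 valine 3' fragments were higher with NaBH4 than in input, in each of the 3 animals. Values are read counts scaled by 1 factor per library. Log2 differences are of log2(value + 1), with their standard error from limma without the animal as a block. TAC-1 had 3' values of 12591, 9972 and 5819.9 in the inputs of animals 1, 2 and 3. With NaBH4 they were 147510.0, 92553 and 71810.2. The groups lay far apart, and within animals the NaBH4 library was 11.7-, 9.28- and 12.3-fold higher, a log2 difference of 3.46 (SE 0.38, n = 3 against 3). Animal 3 had the lowest TAC-1 value in both kinds of library.

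CAC-4 was the valine 3' fragment with the largest log2 difference, 3.54 (SE 0.38). Its inputs held 19.4, 15.4 and 26.7 and its NaBH4 libraries 337, 199 and 214, which is 17.3-, 12.9- and 8.03-fold within animals. These input values rest on few reads. The other 3 CAC rows shared their 3' reads with AAC rows, so CAC-4 is the only CAC 3' row of the mouse outside a set with an AAC row.

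AAC-2, with CAC-1 in the same set, came next. Its 3' values were 593, 450.2 and 508 in input and 4044, 2483 and 2202 with NaBH4, a log2 difference of 2.45 (SE 0.30) with folds of 6.82, 5.52 and 4.34. AAC-3, with CAC-3, had 329, 296 and 528 in input and 1994, 1175 and 1885 with NaBH4 (log2 difference 2.14, SE 0.33). The inputs of these sets were alike across animals, apart from a higher value for AAC-3 in animal 3.

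The set of AAC-1, AAC-5 and CAC-2 had a smaller difference. AAC-1 had 3' values of 1395, 1127 and 2632 in input and 5689.5, 3577 and 5421 with NaBH4, folds of 4.08, 3.17 and 2.06 and a log2 difference of 1.58 (SE 0.36). Animal 3 had the highest input and the smallest fold. AAC-4 also had its highest input and smallest fold in animal 3, with inputs of 170.1, 99.8 and 352, NaBH4 values of 612, 360.4 and 691 and a log2 difference of 1.55 (SE 0.49), the smallest of the 10. In both rows the input of animal 3 was still below every NaBH4 library.

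**Figure D1:**
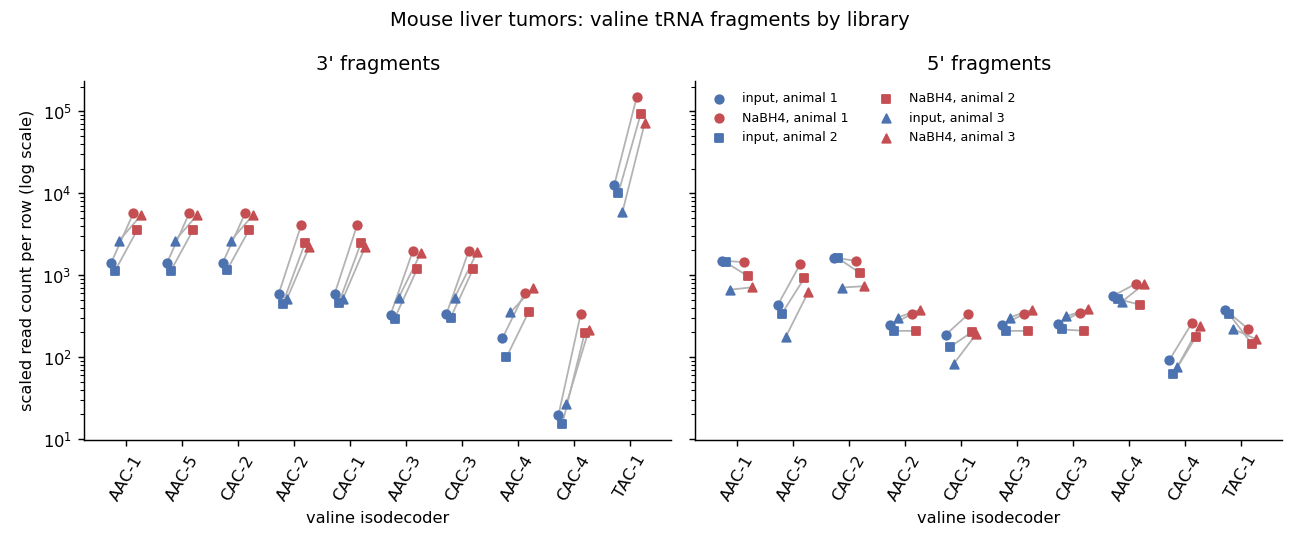
Scaled read counts (log axis) of the 10 valine isodecoders in mouse tumors, 3' fragments at left and 5' fragments at right; each symbol is 1 library, blue for input and red for NaBH4, and a grey line joins the libraries of 1 animal. Every 3' fragment had its 3 NaBH4 values above its 3 inputs, while among 5' fragments only AAC-5, CAC-1 and CAC-4 did; neighbouring rows such as AAC-1, AAC-5 and CAC-2 hold nearly the same 3' reads.

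By limma over 16849 features, 4 of the 10 valine 3' fragments were called higher at an adjusted p of 0.05 (AAC-2, CAC-1, CAC-4 and TAC-1) and 0 lower. They stand for 3 sets of reads, since AAC-2 and CAC-1 share theirs. Over all features 0.178% were called higher, and over the 3' fragments of all mature tRNAs 14.8%, or 29 of 196. The groups did not overlap for 10 of 10 valine 3' fragments, against 46.9% of all mature 3' fragments and 3.99% of all features. With the animal as a block, all 10 were called higher, where 1.54% of all features were. edgeR on the recovered reads called only CAC-4, against 0.0772% of all features. DESeq2 called 6, the 4 of limma with AAC-3 and CAC-3, and 0 lower, where it called 0.651% of 10903 features with an adjusted p higher and 0.128% lower. Single libraries were left out only in limma without the animal block. That count was 0 without either library of animal 1 or either library of animal 2. Calls over all features were also fewer there than the 30 with all libraries. They numbered 6 of 16478 without the NaBH4 library of animal 1 and 14 of 16355 without its input. For animal 2 they numbered 8 of 16418 and 4 of 16396. The valine count was 2 without the input of animal 3, against 18 of 16035 features. It was 4 without the NaBH4 library of animal 3, against 28 of 16043.

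Compared within each animal, the TAC-1 difference exceeded that of AAC-1 by 1.52, 1.55 and 2.58 on the log2 scale in animals 1, 2 and 3 (1.89 ± 0.60, SD, n = 3). It exceeded that of AAC-2 by 0.78, 0.75 and 1.51. These comparisons do not depend on the scaling between libraries, apart from the added 1. The sign was the same in 3 of 3 animals for 8 of the 9 other isodecoders. CAC-4 was the exception, with a larger difference than TAC-1 in animals 1 and 2 and a smaller one in animal 3. The 8 rows are fewer sets of reads and do not agree independently. AAC-1, AAC-5 and CAC-2 share their 3' reads, as do AAC-2 with CAC-1 and AAC-3 with CAC-3. Without the input of animal 3 the mean excess of TAC-1 over AAC-1 was 1.21 in place of 1.89. Members of an anticodon are not replicates, so no test was made between anticodons.

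The share of 3' fragments among the 4 classes is also free of the scaling between libraries. For TAC-1 it was 94.6% ± 0.236 (SD, n = 3) in input and 99.7% ± 0.0677 with NaBH4. Summed over the AAC rows it was 56.2%, 53.2% and 77.4% in the inputs of animals 1 to 3 and 80.7%, 80.3% and 84.4% with NaBH4. Summed over the CAC rows it was 51.6%, 47.9% and 75.5%, against 83.0%, 81.8% and 86.1%. For each anticodon the groups did not overlap, and for AAC and CAC the inputs spread widely, with animal 3 highest. An exact permutation test of 3 against 3 cannot go below a two-sided p of 0.1, so none is given.

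Within those sums the isodecoder rows differed. These shares are not separate where rows hold the same reads, such as the 3' rows of AAC-1, AAC-5 and CAC-2 or the 5' rows of AAC-2 and AAC-3. The 3' share of CAC-4 moved from 18.3% ± 5.43 to 51.4% ± 4.79 and that of AAC-4 from 27.4% ± 13.7 to 45.2% ± 1.78. AAC-2 went from 66.9% ± 4.26 to 89.9% ± 4.04. AAC-5 stood against the rest of its anticodon: its share was 75.7%, 76.6% and 93.3% in input and 80.6%, 79.5% and 89.6% with NaBH4, lower in animal 3. Its 5' fragments were also higher with NaBH4, as the next values show.

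**Figure D2:**
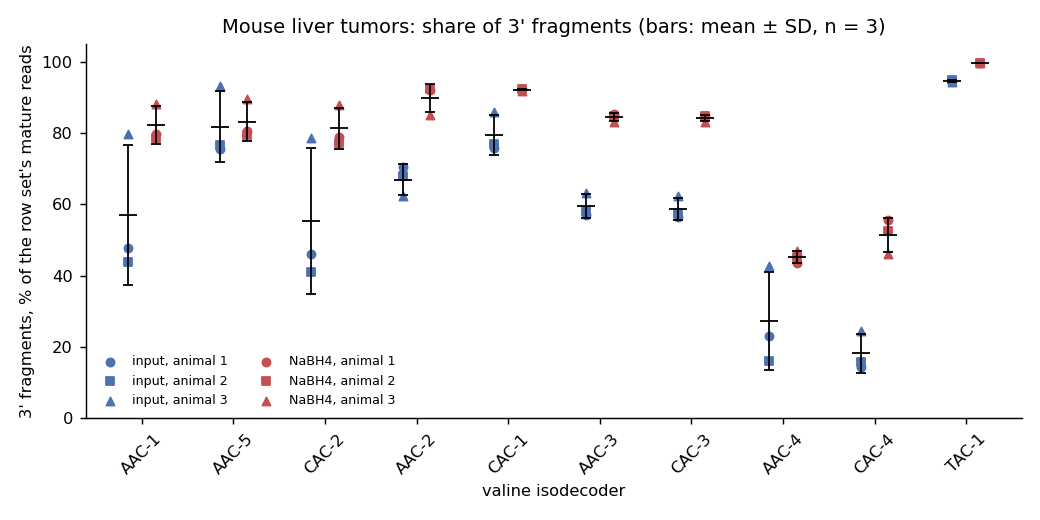
Share of 3' fragments among all mature reads of each valine isodecoder in mouse tumors, in percent; symbols are single libraries (blue input, red NaBH4) and black bars the mean ± SD of 3 animals. TAC-1 lies at 94.6% in input and 99.7% with NaBH4, CAC-4 moves from 18.3% to 51.4%, and the input of animal 3 lies above the other inputs for all isodecoders but AAC-2 and TAC-1. Rows such as AAC-1, AAC-5 and CAC-2 hold nearly the same 3' reads.

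The 5' fragments of the mouse valine tRNAs did not move as one. AAC-5 had 435, 340.3 and 179 in input and 1369, 919 and 624 with NaBH4, folds of 3.15, 2.70 and 3.49. CAC-4 had 92.4, 62.6 and 76.3 in input and 259, 176 and 243 with NaBH4, folds of 2.81, 2.82 and 3.18. CAC-1 was 1.78-, 1.53- and 2.30-fold higher. For these 3 rows the groups did not overlap, as for 3.99% of all features. No such share over mature 5' fragments is given here.

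The other 5' rows overlapped between the groups. AAC-1 had 1503, 1430.4 and 666 in input and 1439.5, 965 and 712 with NaBH4. CAC-2 had 1629.7, 1618 and 706 against 1498, 1055 and 734. TAC-1 had 378, 333 and 220.1 against 224, 146 and 166, lower within each animal (0.591-, 0.437- and 0.755-fold). So AAC-5 shared its 3' reads with AAC-1, but its 5' values lay higher with NaBH4 in each animal, and those of AAC-1 did not.

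Limma called 0 of the 10 valine 5' fragments, where 3 had an unadjusted p under 0.05. edgeR also called 0, against 0.0772% of all features. DESeq2 called 1 (CAC-4) where 0.651% were called higher, and the animal block called 2 (AAC-5 and CAC-4) where 1.54% were. Their median log2 difference was 0.26, against -0.53 over 152 mature 5' fragments. As deposited, 7 of 10 were above 0, but with libraries scaled to an equal total of mature tRNA reads, or of all listed features, only 3 of 10 were. Those scalings shift every log2 difference by -0.66 and -0.43. All 10 3' fragments stayed above 0 under both.

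Whole tRNA reads were few outside TAC-1. TAC-1 had scaled whole-read values of 327, 211 and 125 in input and 93.9, 89.1 and 76.5 with NaBH4, 0.287-, 0.423- and 0.611-fold within animals, and its groups did not overlap. AAC-5 was also lower without overlap, at 8.51, 3.63 and 7.41 against 1.49, 0.958 and 1.02, each NaBH4 value standing for 1 read. Of the 10 whole rows 2 were at 0 in all libraries and 6 passed the filter of a value of at least 1 in 3 libraries. Limma called 0 of the 6 (2 with an unadjusted p under 0.05), edgeR 0 and DESeq2 0 of the 1 row it gave an adjusted p (TAC-1). The animal block called TAC-1 lower, against 0.326% of all features. Groups without overlap and lower with NaBH4 made up 3.7% of all features. The 10 rows of other reads had means of 2.19 to 11.5, and limma called 0 of them, with 0 at an unadjusted p under 0.05, 0 by edgeR and 0 by DESeq2, which gave 3 of the 10 an adjusted p.

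Valine 3' fragments had a median log2 difference of 2.13 in the mouse tumors, against 0.69 over the 183 mature tRNA 3' fragments whose mean reached 10. Ranked from the largest difference, CAC-4 was 17th and TAC-1 20th of the 183, and the other valine rows lay between 35th and 60th. In 12 other families generally described as holding m7G (Ala, Arg, Asn, Cys, Ile, Lys, Met, Phe, Pro, Thr, Trp and Tyr), 89 of 111 3' fragments were above 0, 23 were called higher and the median was 0.67. That median pools unlike families. Rows lay between 2.19 and 5.24 for Ala, 2.69 and 4.38 for Tyr, 2.05 and 2.21 for Trp and 1.75 and 4.57 for Ile. Asn ran from 1.21 to 4.68 and Lys from 0.16 to 3.38. Thr, Pro, Arg, Met, Cys and Phe reached at most 1.65, 0.43, 0.57, 0.52, 0.98 and 0.01. Large differences were thus not particular to valine. In 6 families generally described as lacking m7G (Asp, Gln, Glu, Leu, SeC and Ser), 45 of 46 3' fragments were above 0, 0 were called and the median was 0.65. Rows of initiator methionine (iMet), Gly, His and Sup stood in neither list. The iMet rows had log2 differences of 3.60, 3.78 and 3.52, and the Gly, His and Sup rows lay between -0.15 and 1.63.

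**Figure D3:**
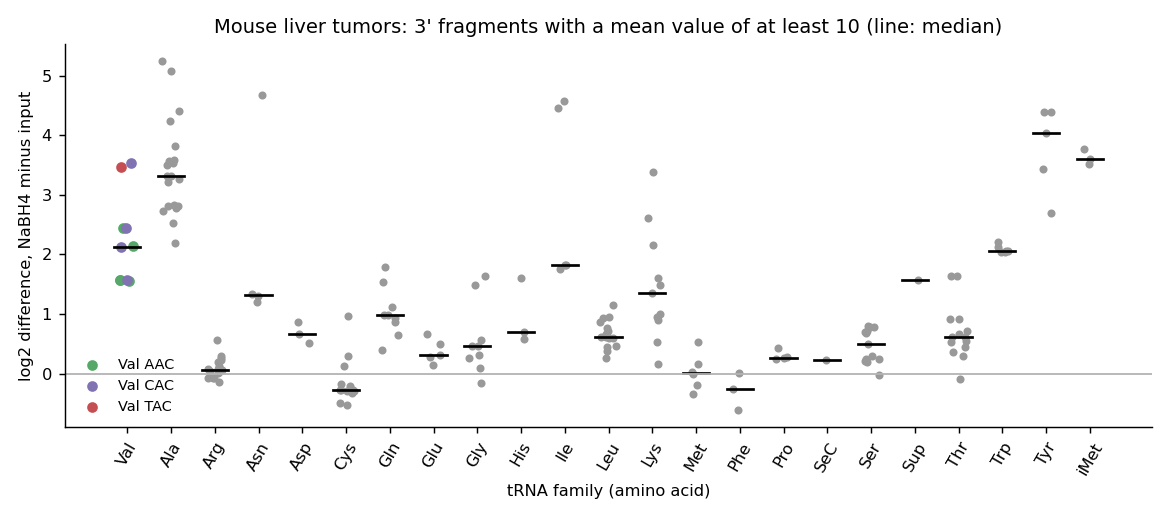
Log2 difference between NaBH4 and input of every mature tRNA 3' fragment whose mean reached 10 in mouse tumors, by tRNA family; each point is 1 row and the black line the family median. Valine rows (green AAC, purple CAC, red TAC) lie between 1.55 and 3.54 with a median of 2.13, while the 183 rows together have a median of 0.69.

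Reads of valine tRNA precursors were few in both tables. Rows of partial precursors summed to 33 to 123 reads in a mouse library and 278 to 371 in a SNU449 library, trailers to 0 to 6 and 93 to 104, and whole precursors to 0. Of the 16 mouse partial precursor rows 13 were tested and limma called 0. For the mature reads, valine rows made up 1.05%, 1.07% and 1.15% of mature tRNA reads in the mouse inputs and 4.56%, 4.28% and 3.65% with NaBH4. In SNU449 the share was 1.71% in the NC input and 6.02% with NaBH4, and 1.52% and 5.73% with METTL1 overexpression. Valine thus made up a larger part of mature reads in each NaBH4 library than in its input. In SNU449 the added reads were mostly of TAC rows, where the reads of TAC-1 and TAC-2 count more than once. From NC input to NaBH4, TAC rows went from 14261 to about 170160 reads, AAC from 12935 to 15405 and CAC from 18757 to 17372. With METTL1 overexpression TAC went from 9715 to about 126530, AAC from 9754 to 13000 and CAC from 14427 to 14763. All mature reads went from 2686958 to 3368948 in NC cells and from 2222876 to 2692553 with overexpression.

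In NC SNU449 cells all 12 valine 3' fragments whose mean reached 10 were higher in the NaBH4 library than in the input. These 12 rows are 8 sets of reads. Intervals are exact 95% intervals from recovered reads and cover counting error only. TAC-1, sharing its 3' reads with TAC-2, had 4801 in input and 71744 with NaBH4, 14.9-fold (14.6 to 15.3). TAC-3, read from a gene on another chromosome, had 195 and 5151, 26.4-fold (23.4 to 29.8). The fourth TAC isodecoder, TAC-4, had too few 3' reads to reach that mean. So the TAC rows had the largest ratios of the family in this line, and the interval of TAC-3 lay above that of TAC-1.

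The AAC and CAC rows had smaller ratios. The set of AAC-1, AAC-2, CAC-1 and CAC-5 is given by AAC-1, with 2249 in input and 4440.2 with NaBH4, 1.97-fold (1.89 to 2.06). AAC-3 had 145 and 456, 3.15-fold (2.67 to 3.72), and AAC-4 had 95.9 and 284, 2.96-fold (2.42 to 3.64). AAC-5, the smallest of the 12, was 1.87-fold (1.09 to 3.28) from 24 and 36 reads. CAC-2 had 299 and 644, 2.15-fold (1.91 to 2.43), and CAC-4 had 15.4 and 41.1, 2.67-fold (1.58 to 4.65). None of these intervals reached that of TAC-1. Of the 12 rows 7 were past 2-fold, on values with 1 added, where 12.4% of all 9612 features and 40.5% of 227 mature 3' fragments were. None was past 2-fold lower, where 12.4% and 5.29% were. Scaled to an equal mature total, 12 of 12 stayed above 1-fold and 4 were past 2-fold.

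In the METTL1 overexpression cells the TAC rows again had the largest ratios. TAC-1 had 4132 in input and 72173 with NaBH4, 17.5-fold (17.0 to 18.0), and TAC-3 had 179 and 6035, 33.8-fold (29.3 to 39.1). AAC-1 had 1701 and 4683, 2.75-fold (2.61 to 2.91). CAC-2 had 106 and 535, 5.04-fold (4.11 to 6.22), and CAC-4 had 18.6 and 41.6, 2.24-fold (1.27 to 4.05), the smallest. AAC-5 was 9.86-fold, but with 3 input reads its interval ran from 2.96 to 51.5. All 12 rows were past 2-fold, where 14.4% of all features and 44.9% of mature 3' fragments were, and with an equal mature total 6 of 12 were. None was past 2-fold lower (15.5% and 0.441%).

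**Figure D4:**
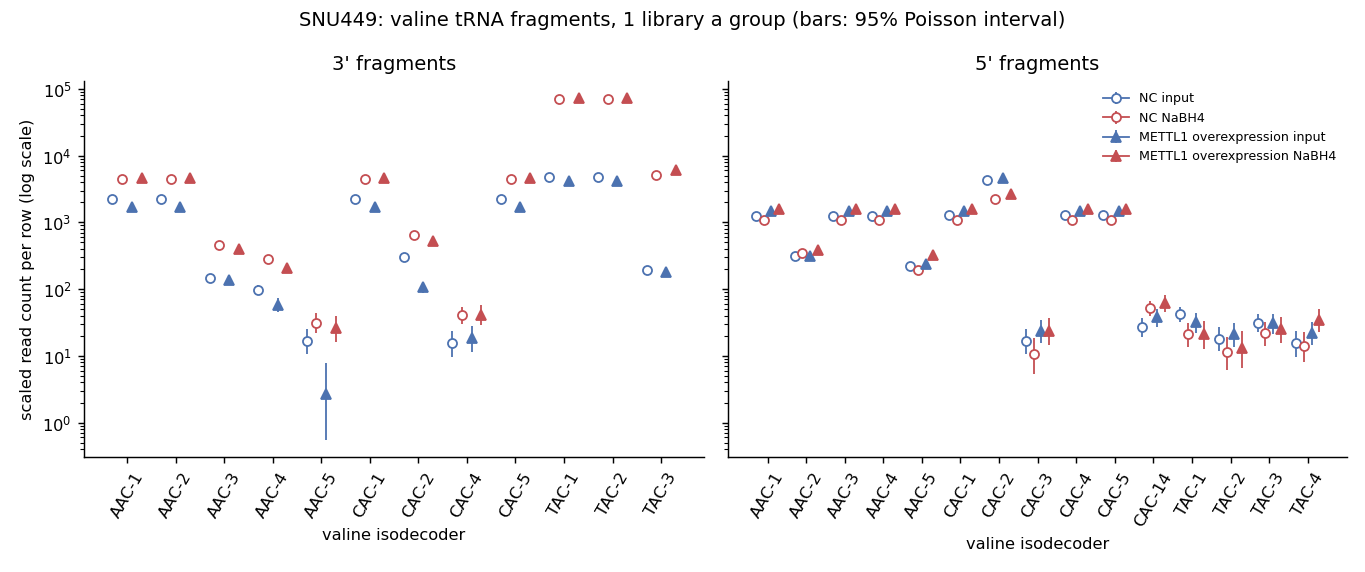
Scaled read counts (log axis) of valine 3' fragments (left) and 5' fragments (right) whose mean reached 10 in the 4 SNU449 libraries; open circles are NC cells, filled triangles METTL1 overexpression, blue input and red NaBH4, and bars are 95% Poisson intervals of 1 library. The TAC 3' rows are separated most, from 4801 to 71744 for TAC-1 in NC cells, and AAC-1 from 2249 to 4440.2; CAC-2 is the 5' row with the highest counts and lies lower with NaBH4 in both cell groups.

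Between the cell groups, the NaBH4 libraries held nearly the same valine 3' values. TAC-1 was 1.01-fold with METTL1 overexpression over NC (0.995 to 1.02), and AAC-1 was 1.05-fold (1.01 to 1.10). The highest ratio was 1.17-fold for TAC-3 (1.13 to 1.22). AAC-4 was lower at 0.729-fold (0.603 to 0.879), CAC-2 at 0.831-fold (0.737 to 0.936) and AAC-5 at 0.832-fold, whose interval of 0.466 to 1.45 held 1. None of the 12 was past 2-fold in either direction, where 12.6% of all features were past it upward and 13.6% downward, and for mature 3' fragments 1.32% and 0.441%. The median log2 difference of the 12 was 0.01, against 0.19 over 227 mature 3' fragments. Of the 12 rows, which are 8 sets of reads, 8 were above 0 as deposited, 4 of them from the set of AAC-1. With an equal mature total 1 was above 0, and with an equal total of all listed features 0 were. Those scalings shift log2 by -0.12 and -0.23, so the direction of AAC-1, CAC-1 and TAC-1 depends on the scaling.

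In the input libraries the valine 3' values were mostly lower with METTL1 overexpression. AAC-1 was 0.756-fold (0.714 to 0.800) and TAC-1 0.861-fold (0.829 to 0.894). CAC-2 was 0.355-fold (0.288 to 0.436), AAC-4 0.609-fold (0.447 to 0.822) and AAC-5 0.158-fold (0.0304 to 0.520, on 3 reads). CAC-4 alone was higher, at 1.21-fold with an interval of 0.631 to 2.30. Thus 11 of 12 rows were below 0 on the log2 scale as deposited and under both other scalings, with a median of -0.40 against 0.11 over all mature 3' fragments. The 12 rows are 8 sets of reads, and this median is the value of the AAC-1 set, which fills 4 rows. CAC-2 and AAC-5 were past 2-fold lower, where 10.4% of all features and 2.2% of mature 3' fragments were, and 0 were past 2-fold higher (10.9% and 0.881%). The NaBH4-to-input ratio with METTL1 overexpression was 1.39 times that in NC cells for AAC-1, 1.17 times for TAC-1 and 2.34 times for CAC-2. For AAC-3 and CAC-4 it was lower than in NC cells, at 0.938 and 0.840 times. With 1 library a group, the cell groups and single libraries cannot be told apart.

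The 5' fragments moved otherwise. CAC-2, whose 5' row was the highest of the 15 valine 5' rows whose mean reached 10 (each from genes of 73 bases), had 4314 in the NC input and 2222 with NaBH4, 0.515-fold (0.492 to 0.539), and 4595 and 2697 with METTL1 overexpression, 0.587-fold (0.558 to 0.617). AAC-1, standing for the set of 6 rows, had 1246 and 1086 in NC cells and 1483 and 1575 with overexpression. TAC-1 had 42.7 and 21.0, then 31.9 and 21.4. Of the 15 5' rows, 2 were above 0 with NaBH4 in NC cells and 10 with overexpression, but 1 and 0 with an equal mature total. None was past 2-fold higher in either (12.4% and 14.4% of all features, 0% and 0.763% of mature 5' fragments) or past 2-fold lower (12.4% and 15.5% of all features, 13.7% and 19.1% of mature 5' fragments). With an equal mature total, 5 were past 2-fold lower in NC cells and 3 with overexpression, and with an equal total of all listed features 2 and 0 were.

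Between the cell groups the 5' row of AAC-1 was 1.45-fold (1.34 to 1.57) with overexpression in the NaBH4 libraries and 1.19-fold (1.11 to 1.27) in the inputs. All 15 rows were above 0 in the NaBH4 libraries as deposited, 14 with an equal mature total and 11 with an equal total of all listed features. In the inputs the numbers were 13, 12 and 6. TAC-4 and CAC-3 were past 2-fold in the NaBH4 libraries, on 16 against 29 and on 12 against 20 reads, where 12.6% of all features and 1.53% of mature 5' fragments were. Only 1 of them was past it with an equal mature total or an equal total of all listed features, and 0 with 10 added in place of 1 or with a mean value minimum of 100. None was past 2-fold lower there, where 13.6% of all features and 0% of mature 5' fragments were. In the inputs none was past 2-fold in either direction. There 10.9% of all features and 0% of mature 5' fragments were past it upward, and 10.4% and 3.05% downward.

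The 3' share put both classes on 1 scale within each library. In NC cells AAC-1 had 64.0% (62.6 to 65.3, exact binomial) in input and 80.1% (79.1 to 81.1) with NaBH4. With METTL1 overexpression it had 53.1% (51.5 to 54.7) and 74.5% (73.4 to 75.7), lower in both kinds of library. CAC-2 had 6.46% and 22.5% in NC cells and 2.25% and 16.5% with overexpression. TAC-1 stayed near its ceiling, at 98.5% and 99.96% in NC cells and 98.9% and 99.95% with overexpression. TAC-3 had 81.3% and 99.5%, and 81.5% and 99.5%. The share was thus lower with overexpression for AAC-1 and CAC-2 in both kinds of library, and for TAC-1 and TAC-3 it differed from NC by less than 1 percentage point.

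**Figure D5:**
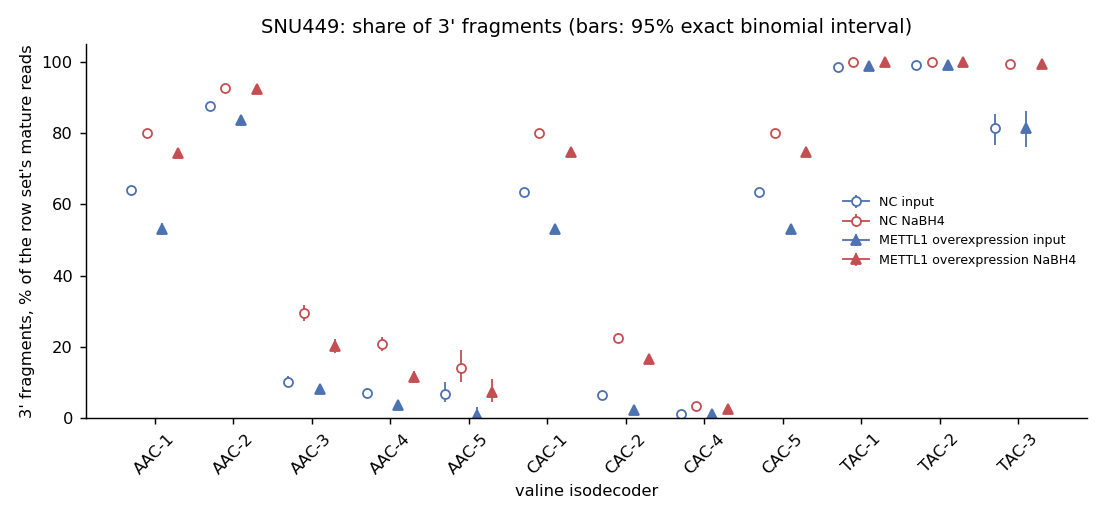
Share of 3' fragments among the mature reads of each valine isodecoder in the 4 SNU449 libraries, in percent; symbols are single libraries and bars exact 95% binomial intervals. AAC-1 lies at 64.0% and 80.1% in NC cells and at 53.1% and 74.5% with METTL1 overexpression, while TAC-1 and TAC-2 lie at 98.5% or higher in all 4 libraries; AAC-1 and CAC-1 share reads.

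All 17 human isodecoders matched genes in RefSeq's table for GRCh38.p14, 28 genes in all. Of these 9 lie on chromosome 6 and 8 on chromosome 5. The TAC-1 genes are TRV-TAC1-1 (chromosome 11, 59550629 to 59550701) and TRV-TAC1-2 (chromosome X, 18674909 to 18674981). TRV-TAC2-1, whose 3' reads were nearly those of TAC-1, lies near the first at 59550987 to 59551059, and both are within the span of LOC102723575. TRV-TAC3-1 lies on chromosome 10, from 5853711 to 5853783, in no other annotated gene, as does TRV-CAC2-1 on chromosome 6, from 27280270 to 27280342. AAC-1 has 5 gene copies on chromosomes 3, 5 and 6, and reads cannot be told apart between copies. TRV-CAC14-1 is annotated as a pseudogene, and its rows held 5' reads (27.3, 51.6, 38.0 and 61.9 in NC input, NC NaBH4, overexpression input and overexpression NaBH4) but no 3' read in 3 of the 4 libraries.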

How the data were processed

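Groups and animal numbers came from the sample titles. The submitters' processing notes list Bowtie2, HTSeq and the build GRCh38 with no role, for mouse samples as well. How reads were assigned to rows, and the mouse build, are not given here. The deposited tables are named RPKM, but hold a signal per feature that behaves as counts divided by 1 factor per library, so a value does not depend on length: whole reads came out, within 0.01, for 99.99% of values in the mouse table and 99.98% in the SNU449 table. Rows with a repeated name numbered 4 in each table.

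Members and lists were chosen with earlier results of these data known. In the mouse table, 16849 of 19077 features reached a value of 1 in 3 or more libraries and were fitted as log2(value + 1) with limma 3.58.1 (R 4.3.3), trended empirical Bayes, two-sided, Benjamini-Hochberg over all features. Alternatives were edgeR 4.0.16 quasi-likelihood and DESeq2 1.42.0 on recovered reads, an animal block, other scalings, pseudocounts and filters, and each library left out. Each animal gave both libraries of a pair, and their deviations from the group means correlated at 0.23, 0.29 and 0.58. The limma script was tested on simulated data. SNU449 was not tested: intervals are exact Poisson or Clopper-Pearson (scipy 1.17.1) and describe counting error alone, as PCR reads without molecular identifiers are not separate molecules. No floor is used for ratios to 0. The named isodecoders were the one with the highest summed value of each anticodon, the 3 largest and 3 smallest 3' differences of each comparison with a mean value of at least 10, and members that moved against their anticodon. Counting shared rows once, and the alternatives of the comparison between anticodons, were chosen after seeing the data.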

Additional observations from a re-analysis of the deposited data

Results flagged for a closer look

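In SNU449, the point values of 8 valine 5' rows moved in opposite directions with NaBH4 in the 2 cell groups, lower in NC cells and higher with METTL1 overexpression. The difference was not tested, since each group is 1 library. In none of the 8 rows were the intervals of both cell groups clear of 1-fold, so counting error alone leaves the reversal unsettled. With overexpression the interval of AAC-1 was 0.987 to 1.14. In NC cells that of AAC-5 was 0.728 to 1.04. For TAC-4 both held 1, at 0.446 to 1.81 in NC cells and 0.882 to 2.78 with overexpression. For AAC-1 the log2 difference was -0.20 in NC cells and 0.09 with overexpression, 0.28 apart, and AAC-3 and AAC-4, which hold nearly the same 5' reads, were 0.29 and 0.28 apart. CAC-1, CAC-4 and CAC-5 hold equal 5' values and were 0.30 apart. These 6 rows are 1 set of reads. AAC-5 went from -0.20 to 0.45, 0.65 apart, and TAC-4 from -0.13 to 0.62, 0.75 apart, on 16 to 29 reads a library. With each library scaled to an equal total of mature tRNA reads, 0 of the 15 5' rows whose mean reached 10 lay above 0 with overexpression.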

How the results depend on the processing

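The count of mouse valine 3' fragments called higher (4 with limma) was 10 with the replicate block (animal), 6 with DESeq2, 1 with edgeR on recovered reads and 1 with an equal total of all listed features. With that equal total 24 of 16931 features were called higher. Leaving out 1 library, in limma without the block, gave 0 to 4 valine 3' fragments, where 4 to 28 of all features were called higher. For 5' fragments (0 with limma) the block called 2 higher and DESeq2 1, and for whole reads the block called 1 lower. The block changed no other count of calls. The TAC share difference of 5.16 percentage points was 3.08 over 3' plus 5' fragments only. The excess of TAC-1 over AAC-1 ran from 1.21 to 2.23 and that over CAC-2 from 1.23 to 2.24 with 1 library left out, against 1.89 and 1.90. In SNU449, 3' fragments past 2-fold numbered 4 in NC cells and 6 with METTL1 overexpression with an equal mature total, in place of 7 and 12. Their 5' fragments past 2-fold lower numbered 5 and 3, in place of 0 and 0. Between cell groups, 1 was past 2-fold higher in NaBH4 libraries with a mean value minimum of 1, in place of 0, and 1 past 2-fold lower in inputs with a minimum of 100, in place of 2. With an equal mature total the ratio in NaBH4 libraries turned to -0.044 for AAC-1, -0.043 for CAC-1 and -0.11 for TAC-1 on the log2 scale, and with an equal total of all listed features to -0.15, -0.15 and -0.22. The cause was not tested. Of the other alternative values for these counts, shares and comparisons, 185 kept their direction and side of the threshold or stayed within 1.5 times or 1 SD. Depth limits the SNU449 3' rows of AAC-5 and CAC-4, with 3 to 47 reads a library.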
